A study of Homo sapiens with 15 samples.

Results

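The RNA of 10 histone lysine demethylases, KDM2A, KDM2B, KDM3A, KDM3B, KDM4A, KDM4B, KDM4C, KDM5A, KDM5B and KDM6B, was followed through co-culture of lung fibroblasts and small cell lung cancer (SCLC) cells. The genes were taken by symbol from the tables of both cell lines, which listed 16382 genes for the fibroblasts and 16076 for the SCLC cells. All 10 were listed in both tables and all 10 passed the filter on low counts, with at least 275 counts in every library. 9 of the 10 were called as higher in fibroblasts grown with H196 cells and KDM4A as lower, where 74.3% of all tested genes were called, 37.2% as higher and 37.1% as lower. On the FPKM scale 5 were called as higher and 1 as lower (limma). The members were chosen with earlier results of these data known, so these counts only describe them. The change was largest for KDM3A, at 4.68-fold. With H69 cells as partner, KDM3A alone passed the test, at 1.25-fold, where 6.70% of all tested genes did. In the H196 cells themselves, KDM3A, KDM4B and KDM6B rose by 1.53-fold to 1.68-fold and KDM4C by 1.23-fold, where 19.8% of all tested genes were called.

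These enzymes remove methyl groups from lysines of histone tails. Their catalytic JmjC domain holds an iron ion and uses molecular oxygen and 2-oxoglutarate as co-substrates, so that their activity depends on oxygen supply as well as on the amount of enzyme. KDM3A and KDM4B are textbook targets of the hypoxia-inducible factors (HIF), the transcription factors that accumulate when oxygen is short, and cancer-associated fibroblasts (CAF) are the fibroblasts of a tumour that the co-culture is meant to model.

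MRC5, a human lung fibroblast line, was grown alone (MRC5_Mo), with the neuroendocrine (NE) SCLC line H69 (MRC5_coH69) or with the non-NE SCLC line H196 (MRC5_coH196). H196 cells were grown alone (H196_Mo) or with MRC5 (H196_Co), and each of these groups has 3 libraries, made after 7 days. The partners were kept apart by a transwell membrane with pores of 0.4 µm, the line sampled lying in the well and its partner on the insert. Each line is a single line, stock media differed between MRC5 (MEM) and SCLC cells (RPMI 1640), and the sources do not say that the replicates were separate cultures, so p-values measure the spread between these libraries, which may be technical. The medium of the co-culture wells is not stated. In comparisons with mono-culture, the partner cells and any change of medium therefore cannot be told apart. Library totals ran from 18476890 to 19170560 counts for MRC5 and from 16073597 to 17358349 for H196. Fibroblast markers (10 genes, collagens and DCN among them) summed to between 20700 and 39200 CPM, counts scaled to the size of the library, in the MRC5 libraries and to at most 3.8 CPM in the H196 libraries, where THY1 was not listed. In MRC5_coH196 that sum was lower, at 20700 to 21700 CPM, than the 33800 to 37500 CPM of MRC5_Mo, and its part in the results was not tested. The markers did not fall together: 5 of the 10 were called as higher and 4 as lower, with a median log2 fold change of 0.041. Of all tested genes, 37.2% were called as higher and 37.1% as lower. On the FPKM scale 2 were called as higher and 5 as lower (limma). COL1A1, the most abundant of them in MRC5_Mo, went from a mean of 14200 CPM to 4770 CPM, and COL6A3 from 6980 CPM to 8760 CPM. Of 9 NE markers, H196 had 7 listed, with a sum of 64.8 to 69.7 CPM that came mainly from CHGB, SYP and DLL3, while NEUROD1 and CHGA reached at most 0.477 CPM in any H196 library, NCAM1 was at 0 in all H196_Mo libraries, and GRP and INSM1 were not listed. In bulk RNA of this kind, fewer cells of a type and less RNA per cell cannot be told apart.

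Before co-culture the members stood at moderate levels. On the FPKM scale, which corrects for gene length, KDM2A was the most abundant member in MRC5_Mo, at 16.8 ± 0.396 (SD, n = 3), followed by KDM4A at 13.9 ± 0.275, KDM3B at 12.9 ± 0.426, KDM5B at 12.7 ± 0.565 and KDM4B at 11.5 ± 0.585. KDM2B (7.89 ± 0.22 FPKM), KDM3A (5.65 ± 0.146 FPKM), KDM5A (4.76 ± 0.0351 FPKM), KDM4C (4.15 ± 0.5 FPKM) and KDM6B (3.41 ± 0.229 FPKM) were lower. The libraries of KDM3B and KDM5B overlapped, as did those of KDM5A and KDM4C, so that these neighbours in the order were not separated. In MRC5_coH196 the order was another: KDM3A, the seventh in MRC5_Mo, led with 24.4 ± 0.363 FPKM, next to KDM5B at 23.3 ± 1.01 FPKM, whose libraries overlapped those of KDM3A, and KDM4B at 19.4 ± 1.45 FPKM. In H196 cells KDM3A was the most abundant member with and without MRC5, at 58.8 ± 1.32 FPKM in H196_Co and 38.4 ± 2.19 FPKM in H196_Mo, followed in both groups by KDM3B, whose libraries overlapped those of KDM4B in H196_Co.

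**Figure D1:**
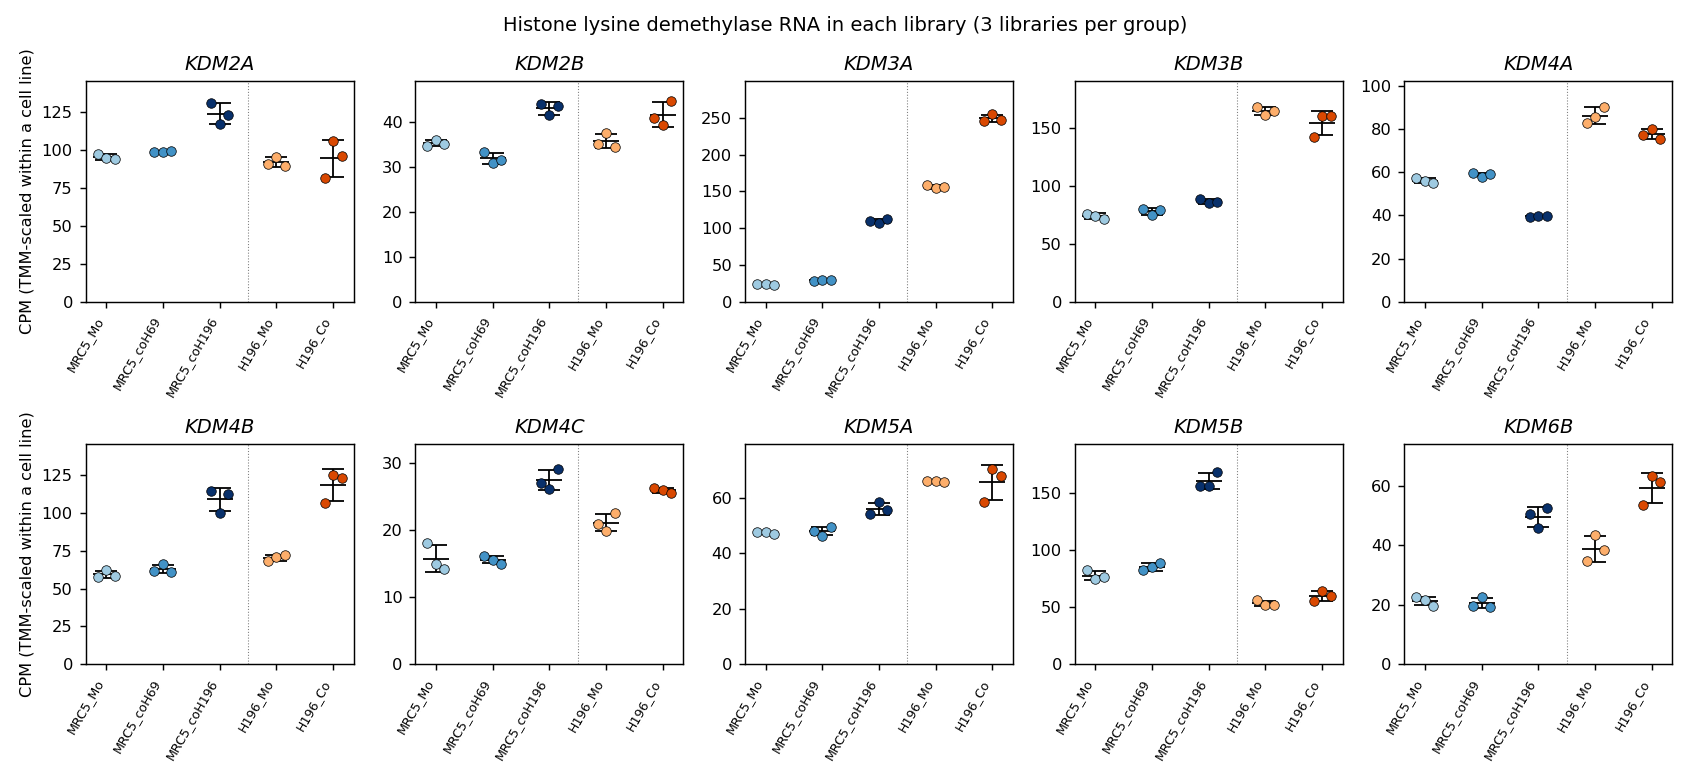
CPM of each of the 10 demethylases (vertical axis, scaled by TMM factors within a cell line and starting at 0) in the 3 libraries of each of the 5 groups, with the mean and SD as bars; the dotted line separates the lines, which were scaled apart. KDM3A in MRC5_coH196 sits at 107 to 112 CPM, above all MRC5_Mo and MRC5_coH69 libraries, and KDM4A is the member that is lower there, at 39.4 to 39.8 CPM.

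The first question was how fibroblasts respond to each kind of SCLC cell. Between MRC5_coH196 and MRC5_Mo all 10 members passed an adjusted p of 0.05 (edgeR's quasi-likelihood test, Benjamini-Hochberg over 12819 genes), in a comparison in which 74.3% of all tested genes did, 37.2% as higher and 37.1% as lower. The share called therefore says little about the members, while the split was 9 higher and 1 lower. Since the members were chosen with earlier results of these data known, this split is a description and not a test. 5 members, KDM3A, KDM6B, KDM5B, KDM4B and KDM4C, were also beyond the study's limit for a differentially expressed gene (DEG), an absolute log2 fold change above 0.58, against 17.2% of all tested genes as higher DEGs, and no member was a lower DEG, against 14.7%. The median log2 fold change of the 10 members was 0.59, beside -0.003 over all tested genes. On the log2(FPKM + 1) scale the median over all genes was -0.13 and 34.8% of the called genes were higher in place of 50%, and of the members 5 were called as higher and 1 as lower (limma). The CPM of the compared libraries did not overlap for any of the 10 members, as was so for 75.5% of all tested genes.

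The H3K9 demethylases were KDM3A and KDM3B, which remove mono- and dimethyl marks from this repressive site. KDM3A (gene ID 55818, at 86437040 to 86492716 on chromosome 2 of GRCh38.p13 in the tables) had 23.9, 24.0 and 22.3 CPM in the MRC5_Mo libraries, 28.3, 29.5 and 29.7 CPM in MRC5_coH69 and 110, 107 and 112 CPM in MRC5_coH196. The groups did not overlap, and the step to MRC5_coH196 was far larger than the spread within any group. The log2 fold change against MRC5_Mo was 2.23 (SE 0.0516, adjusted p = 6.38e-22 by edgeR), the 224th largest of the 12819 genes tested. KDM3B, its close relative, had 76.2, 73.9 and 71.2 CPM in MRC5_Mo and 88.9, 85.1 and 86.2 CPM in MRC5_coH196, a log2 fold change of 0.23 (SE 0.0471, adjusted p = 8.73e-05 by edgeR). The KDM3B change was of the size of the difference between scalings: on the log2(FPKM + 1) scale it was 0.059 and not called (adjusted p = 0.278 by limma). Of the summed KDM3A and KDM3B FPKM, KDM3A made up 30.4% ± 0.389 in MRC5_Mo, 34.1% ± 1.8 in MRC5_coH69 and 64.4% ± 0.785 in MRC5_coH196 (SD, n = 3). The sum itself was 18.5 ± 0.552 FPKM in MRC5_Mo and 37.9 ± 0.118 FPKM in MRC5_coH196.

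The H3K9 and H3K36 demethylases KDM4A, KDM4B and KDM4C, which act on the trimethylated forms, did not move as a block. KDM4B (on chromosome 19, 4969087 to 5153605) had 57.4, 62.2 and 58.2 CPM in MRC5_Mo, 61.4, 66.1 and 61.0 CPM in MRC5_coH69 and 114, 100 and 112 CPM in MRC5_coH196. Its log2 fold change in MRC5_coH196 was 0.87 (SE 0.0535, adjusted p = 1.89e-13 by edgeR). KDM4C (on chromosome 9, 6716182 to 7175648), the lowest of these 3 genes, had 18, 14.9 and 14.2 CPM in MRC5_Mo and 27, 26.1 and 29.1 CPM in MRC5_coH196. It was thus higher in every co-culture library, by 0.80 on the log2 scale (SE 0.0785, adjusted p = 1.44e-09 by edgeR). KDM4A (on chromosome 1, 43650149 to 43705518) went the other way, from 57.1, 55.8 and 54.8 CPM in MRC5_Mo to 39.4, 39.8 and 39.6 CPM in MRC5_coH196. It fell by 0.50 on the log2 scale (SE 0.0489, adjusted p = 1.58e-09 by edgeR), short of the DEG limit. The DEG status of KDM4A and KDM4C depended on the scaling: on the log2(FPKM + 1) scale KDM4A was at -0.61, beyond the limit, and KDM4C at 0.50, short of it, and with library totals KDM4A was at -0.67. KDM4B accounted for 39% ± 1.81 of the FPKM of the 3 genes in MRC5_Mo and for 56.3% ± 1.81 in MRC5_coH196, while their sum was 29.6 ± 0.757 and 34.4 ± 1.54 FPKM. These genes share similar coding sequence, and reads of shared stretches could be split between them by the authors' counting.

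KDM3A, KDM4B, KDM4C and KDM4A span the range of responses, and their promoters are given here for comparison. RefSeq (GRCh38.p14) windows were matched for all 10 members, with 16 windows in all, each running from 250 bases before to 50 after an annotated start, and only the 250 bases before the first start are printed. The letters searched, on both strands, were ACGTG and GCGTG, the usual core of the HIF-binding element, and capitals mark every match, with CACGTG counting once per strand. The KDM3A region is chr2:86441121-86441370, that of KDM4B chr19:4968863-4969112, that of KDM4C chr9:6757723-6757972 and that of KDM4A chr1:43649899-43650148, all on the plus strand.
KDM3A: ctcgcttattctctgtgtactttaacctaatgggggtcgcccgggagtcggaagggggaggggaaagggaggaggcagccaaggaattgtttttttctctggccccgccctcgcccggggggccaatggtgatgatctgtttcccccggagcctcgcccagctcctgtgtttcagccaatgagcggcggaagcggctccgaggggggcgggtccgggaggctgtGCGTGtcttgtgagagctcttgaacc
KDM4B: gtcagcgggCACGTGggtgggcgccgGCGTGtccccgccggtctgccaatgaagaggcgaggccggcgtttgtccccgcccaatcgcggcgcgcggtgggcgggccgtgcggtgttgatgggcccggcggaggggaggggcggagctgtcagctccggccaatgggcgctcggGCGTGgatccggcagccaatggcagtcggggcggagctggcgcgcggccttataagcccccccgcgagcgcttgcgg
KDM4C: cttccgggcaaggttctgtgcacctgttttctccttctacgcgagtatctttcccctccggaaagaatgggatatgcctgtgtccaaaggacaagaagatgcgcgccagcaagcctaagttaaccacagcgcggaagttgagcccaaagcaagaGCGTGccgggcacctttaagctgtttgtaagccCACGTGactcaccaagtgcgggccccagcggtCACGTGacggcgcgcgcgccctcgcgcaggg
KDM4A: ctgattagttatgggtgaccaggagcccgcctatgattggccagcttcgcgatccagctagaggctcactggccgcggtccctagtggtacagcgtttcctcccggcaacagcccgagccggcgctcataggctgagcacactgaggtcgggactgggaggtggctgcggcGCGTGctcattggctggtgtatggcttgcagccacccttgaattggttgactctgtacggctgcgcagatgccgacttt
The KDM3A region holds 1 match, at position -26 from the start, the KDM4B region 4, the KDM4C region 5 and the KDM4A region 1. A match was found in 13 of the 16 windows of the members, some of which overlap, and in 48.4% of the 35116 RefSeq windows of the same length. G and C made up 53% to 84% of the member windows. The other windows were not matched for this, and the difference was not tested. At least 4 matches, as in KDM4B and KDM4C, were found in 4.4% of all windows. KDM4A, which fell, KDM5A and KDM5B each have 1 match, as does the first window of KDM6B, whose second window has none. KDM3B has none in its only window, and the number of matches thus did not follow the order of the fold changes. A match is a description of these letters and not a binding site, and for some members, KDM4C among them, the tables place the gene's start further upstream than this window.

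The H3K4 demethylases KDM5A and KDM5B remove methyl groups from a mark of active promoters. KDM5B (on chromosome 1, 202724495 to 202809470), the more abundant of the pair, had 82.2, 74.6 and 76.4 CPM in MRC5_Mo, 82.4, 84.8 and 88.8 CPM in MRC5_coH69 and 156, 156 and 168 CPM in MRC5_coH196. Every MRC5_coH196 library lay above all other MRC5 libraries, and the log2 fold change was 1.04 (SE 0.0487, adjusted p = 8.92e-16 by edgeR). KDM5A had 47.5, 47.7 and 47.1 CPM in MRC5_Mo and 54.0, 58.3 and 55.5 CPM in MRC5_coH196, a log2 fold change of 0.24 (SE 0.05, adjusted p = 0.000152 by edgeR) that was 0.052 and not called on the log2(FPKM + 1) scale (adjusted p = 0.416 by limma). KDM5B made up 72.8% ± 0.922 of the summed FPKM of both in MRC5_Mo and 82.4% ± 0.974 in MRC5_coH196.

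KDM6B, the H3K27 demethylase that opposes the Polycomb mark, was the least abundant member in MRC5_Mo on the FPKM scale. Its libraries had 22.6, 21.6 and 19.8 CPM in MRC5_Mo, 19.8, 22.7 and 19.4 CPM in MRC5_coH69 and 50.6, 45.9 and 52.4 CPM in MRC5_coH196. After KDM3A this was the largest change among the members, 1.22 on the log2 scale (SE 0.0683, adjusted p = 3.39e-14 by edgeR). With H69 the log2 fold change of KDM6B was -0.048, with a 95% confidence interval from -0.2 to 0.11.

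The H3K36 demethylases KDM2A and KDM2B, which bind unmethylated CpG DNA through a zinc finger, rose by less than the DEG limit. KDM2A had 97.4, 94.8 and 93.9 CPM in MRC5_Mo and 131, 117 and 123 CPM in MRC5_coH196 (log2 fold change 0.37, SE 0.0462, adjusted p = 8.61e-08 by edgeR). KDM2B, a subunit of the variant Polycomb complex PRC1.1, had 34.8, 36.1 and 35.2 CPM in MRC5_Mo and 44.0, 41.5 and 43.7 CPM in MRC5_coH196 (log2 fold change 0.28, SE 0.054, adjusted p = 4.44e-05 by edgeR). Both calls were lost on the log2(FPKM + 1) scale, with log2 differences of 0.093 (adjusted p = 0.0695 by limma) for KDM2A and 0.069 (adjusted p = 0.226 by limma) for KDM2B. The sources do not state strand-specific counting, so reads of any antisense transcript at KDM2B could not be told apart from its own.

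**Figure D2:**
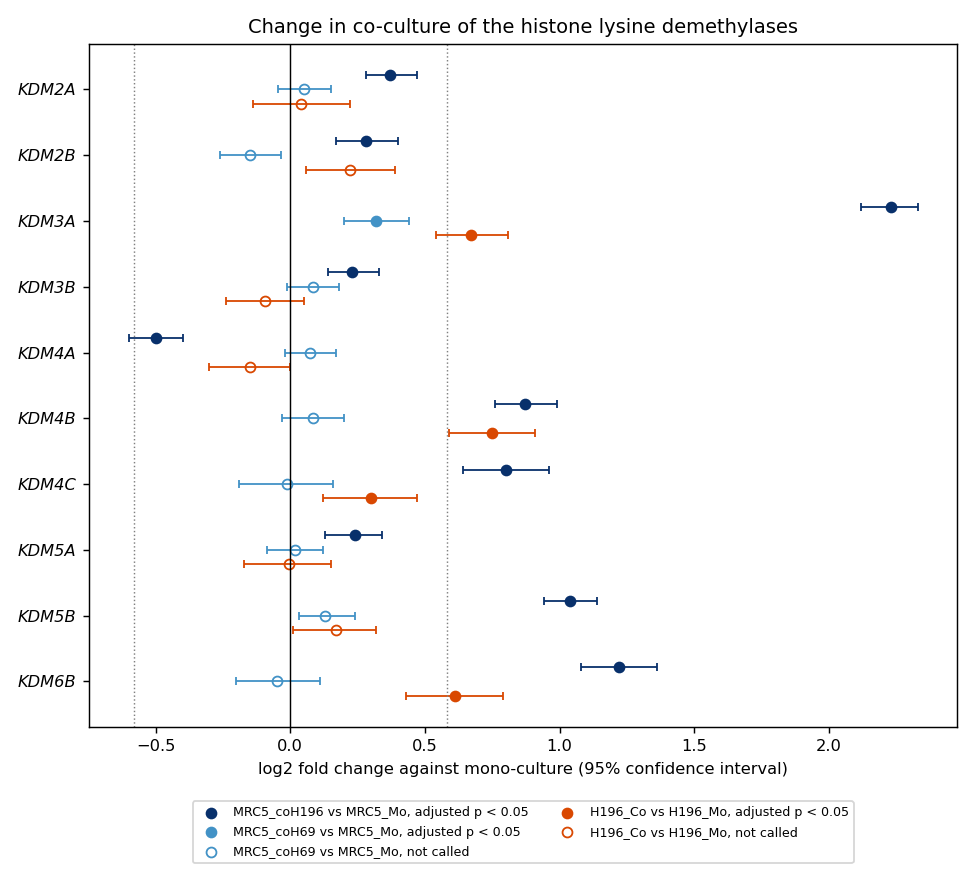
Log2 fold change against mono-culture (horizontal axis, with 95% confidence intervals) of the 10 demethylases in MRC5_coH196, MRC5_coH69 and H196_Co; filled points passed an adjusted p of 0.05 and dotted lines mark the DEG limit of 0.58. All 10 points of MRC5_coH196 are filled and 1 of MRC5_coH69, and the points beyond the limit are KDM3A, KDM6B, KDM5B, KDM4B and KDM4C in MRC5_coH196 and KDM3A, KDM4B and KDM6B in H196_Co.

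Co-culture with the NE line H69 moved the members little. KDM3A was higher by 0.32 on the log2 scale (SE 0.0587, adjusted p = 0.00106 by edgeR), in 3 of 3 libraries and below the DEG limit. It was the only call among the 10 members by edgeR and by DESeq2, with 2 members higher and 1 lower at an unadjusted p under 0.05, beside 6.70% of all tested genes called, 3.78% called as higher and 0.554% beyond the DEG limit. The CPM of 5 members did not overlap between MRC5_coH69 and MRC5_Mo, against 25.7% of all tested genes. KDM5B (log2 fold change 0.13, adjusted p = 0.116 by edgeR) and KDM2B (-0.15, adjusted p = 0.119 by edgeR) were the next in size. For the other 7 members the 95% confidence intervals lay between -0.2 and 0.2, which bounds the change but does not show that there was none.

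The direct comparison of the fibroblasts from both co-cultures uses the same MRC5_coH196 libraries. Of the 10 members, 9 were higher and 1 lower in MRC5_coH196 than in MRC5_coH69, where 72.3% of all tested genes were called, 35.7% as higher and 36.6% as lower. The log2 fold changes were 1.91 for KDM3A (SE 0.0501, adjusted p = 9.02e-21 by edgeR), 1.27 for KDM6B, 0.91 for KDM5B, 0.82 for KDM4C and 0.79 for KDM4B, all DEGs, as were 15.2% of all tested genes in the higher direction. KDM4A was lower by -0.57 (adjusted p = 1.35e-10 by edgeR). The difference in KDM3B, 0.15, was the smallest, and it turned to -0.009 on the log2(FPKM + 1) scale. There the calls of KDM2A (0.066, adjusted p = 0.182 by limma) and KDM5A (0.05, adjusted p = 0.438 by limma) were lost as well, which left 6 members higher and 1 lower.

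In the SCLC cells the same co-culture was looked at from the other side. 4 members were higher in H196_Co than in H196_Mo and none lower, in a comparison in which 19.8% of all tested genes were called, 12.0% as higher and 7.78% as lower. At an unadjusted p under 0.05, 6 members were higher and 1, KDM4A, was lower, and DESeq2 called 4 as higher and 0 as lower. The split of all called genes depended on the scale, with 60.8% higher here and 36.4% on the log2(FPKM + 1) scale. KDM3A had 159, 154 and 156 CPM in H196_Mo and 246, 255 and 247 CPM in H196_Co. These groups were apart by many times their spread, and the log2 fold change was 0.67 (SE 0.0652, adjusted p = 3.35e-07 by edgeR). KDM4B went from 68.0, 70.9 and 72.0 CPM to 106, 125 and 123 CPM, a log2 fold change of 0.75 (SE 0.0761, adjusted p = 6.57e-07 by edgeR), the largest of the members in this line. KDM6B went from 34.7, 43.5 and 38.5 CPM to 53.6, 63.3 and 61.2 CPM, a log2 fold change of 0.61 (SE 0.0881, adjusted p = 5.49e-05 by edgeR). These 3 genes were DEGs, as were 3.26% of all tested genes in the higher direction. KDM6B was so by a small margin, and its log2 fold change was below the limit without H196_Co replicate 2 (0.56), without H196_Mo replicate 1 (0.53), on the log2(FPKM + 1) scale (0.48) and with library totals (0.54), its call at an adjusted p of 0.05 being kept in each.

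KDM4C was the remaining call in H196_Co, with 20.9, 19.9 and 22.5 CPM in H196_Mo and 26.3, 25.9 and 25.5 CPM in H196_Co (log2 fold change 0.30, SE 0.0834, adjusted p = 0.0168 by edgeR). The groups did not overlap, yet the call was lost without H196_Co replicate 3 (adjusted p = 0.0524 by edgeR), without H196_Mo replicate 2 (adjusted p = 0.0824 by edgeR) and on the log2(FPKM + 1) scale (adjusted p = 0.0872 by limma). KDM2B lay at the threshold (log2 fold change 0.22, adjusted p = 0.0502 by edgeR) and passed it without H196_Co replicate 2 (adjusted p = 0.0347 by edgeR). KDM5B, with 56.0, 52.4 and 51.9 CPM in H196_Mo and 55.8, 63.9 and 59.9 CPM in H196_Co, overlapped between groups and was not called (log2 fold change 0.17, adjusted p = 0.126 by edgeR). KDM4A had a log2 fold change of -0.15 (adjusted p = 0.147 by edgeR) that was -0.21 and called on the log2(FPKM + 1) scale (adjusted p = 0.0399 by limma). The log2 fold changes of KDM2A, KDM3B and KDM5A lay between -0.095 and 0.039, with confidence intervals reaching from -0.24 to 0.22. In all, 7 of the 10 members did not overlap between H196_Co and H196_Mo, against 37.2% of all tested genes.

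A model over all 15 libraries tested whether the fibroblast response to co-culture (MRC5_coH196 against MRC5_Mo) differed from the H196 response (H196_Co against H196_Mo). 8 of the 10 members differed, 7 as higher and 1 as lower in the fibroblasts, beside 51.2% of all genes tested, 24.1% as higher and 27.1% as lower. KDM3A had the largest difference, 1.53 on the log2 scale (SE 0.0737, adjusted p = 2.32e-15 by edgeR). KDM5B followed with 0.85 (SE 0.0856, adjusted p = 4.26e-09 by edgeR) and KDM6B with 0.58 (SE 0.119, adjusted p = 0.000168 by edgeR). In each of these the fibroblast response was the more positive. KDM4C (0.48), KDM2A (0.31), KDM3B (0.30) and KDM5A (0.22, adjusted p = 0.0427 by edgeR) differed in the same direction, and KDM4A in the other (-0.38). The KDM5A call was lost in 7 of the 15 fits that left out 1 library, each of the 3 MRC5_Mo and the 3 H196_Mo libraries and H196_Co replicate 1, with adjusted p up to 0.142 by edgeR. KDM4B did not pass the test of the difference (0.10, 95% confidence interval -0.087 to 0.29, adjusted p = 0.377 by edgeR), nor did KDM2B (0.035, 95% confidence interval -0.15 to 0.22).

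**Figure D3:**
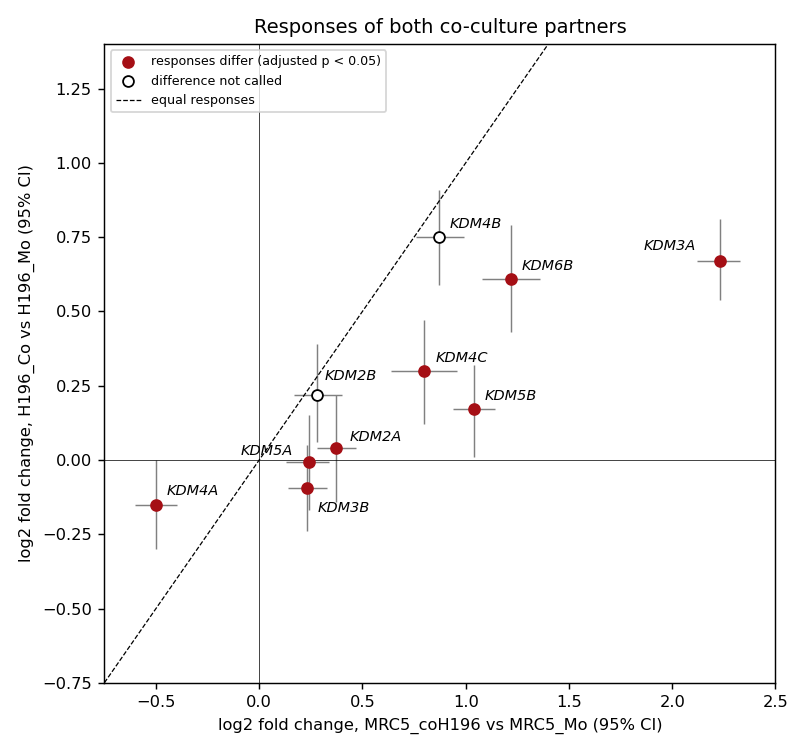
Log2 fold change of each demethylase in MRC5_coH196 against MRC5_Mo (horizontal axis) and in H196_Co against H196_Mo (vertical axis), with 95% confidence intervals; the dashed line marks equal responses and filled points passed the test of the difference. KDM3A lies furthest from the line, at 2.23 and 0.67, and KDM4B lies near it, at 0.87 and 0.75.

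Between the lines grown alone, KDM3A was higher in H196_Mo than in MRC5_Mo by 2.27 on the log2 scale (SE 0.0557, adjusted p = 1.81e-24 by edgeR), KDM3B by 0.69, and KDM5B was lower by -1.01 (adjusted p = 5.63e-15 by edgeR). Of the 10 members 8 were called, beside 86.6% of all tested genes, and the libraries of 8 members did not overlap, against 87.6%. Line and stock medium cannot be told apart here, and the value depends on the scaling. With library totals in place of TMM factors, the median of all genes was 0.45 in place of 0.028, KDM3A was higher by 2.70, KDM5B lower by -0.58, and KDM4B turned from -0.22 to 0.21. KDM3A in MRC5_coH196 stayed below the H196 line, with 24.0 to 24.7 FPKM beside 36.8 to 40.9 FPKM in H196_Mo, the tables having been normalized apart.

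RNA of the partner line was measured beside these values. Genes found in H196 but near 0 in MRC5_Mo (95 genes, chosen after seeing the data) summed in MRC5_coH196 to 0.589% of their H196_Co level, with 0.119% in MRC5_Mo and 0.122% in MRC5_coH69. The sum differed between the 3 MRC5_coH196 libraries, from 23.7 to 61.8 CPM, beside 8.97 to 9.92 CPM in MRC5_Mo. KDM3A in MRC5_coH196 was at 41.7% of its H196_Co level. In H196_Co, 142 genes of MRC5 summed to 0.0503% of their MRC5_coH196 level, with 0.0391% in H196_Mo.

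The summed FPKM of the 10 members was 93.8 ± 2.17 in MRC5_Mo, 97.6 ± 0.98 in MRC5_coH69 and 134 ± 2.57 in MRC5_coH196, and 151 ± 2.76 in H196_Mo and 178 ± 8.68 in H196_Co (SD, n = 3). In H196 the KDM3A share of the KDM3A and KDM3B sum went from 57.5% ± 0.508 to 70% ± 1.54, and the KDM4B share of the KDM4 sum from 34.1% ± 0.5 to 47.2% ± 2.55. The KDM5 sum stayed within its spread there, at 15 ± 0.645 and 15.2 ± 1.3 FPKM. These sums and shares are descriptions with no test.

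**Figure D4:**
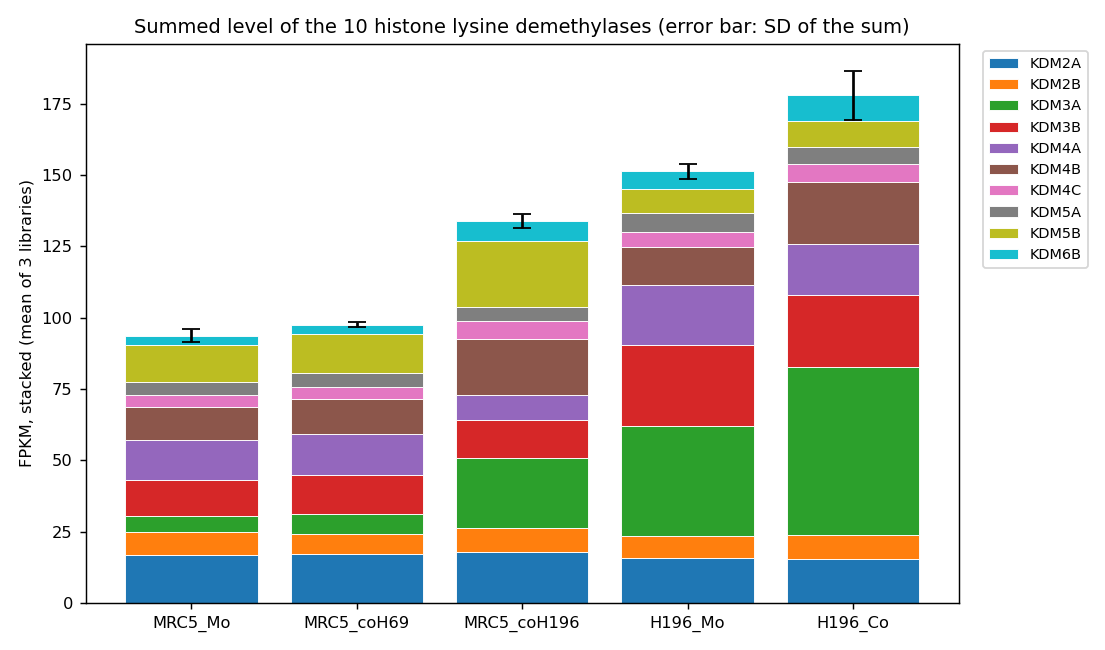
FPKM of the 10 demethylases stacked as means of 3 libraries in the 5 groups (vertical axis from 0), with the SD of the sum as error bar. The stack is 93.8 FPKM high in MRC5_Mo and 134 FPKM in MRC5_coH196, and the KDM3A block is 5.65 and 24.4 FPKM in these groups.

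The remaining JmjC enzymes were read from a list of 16 genes. In MRC5_coH196, 7 were higher and 8 lower, where 37.2% of all tested genes were called as higher and 37.1% as lower. The median log2 fold change was -0.18, beside 0.59 for the 10 members, and on the log2(FPKM + 1) scale 4 were called as higher and 8 as lower (limma). The list is mixed. Of its KDM genes, KDM7A, KDM5C (0.53) and KDM6A (0.27) were higher, KDM8 (-1.15) was lower and KDM4D (-0.15) was not called. The DEGs with the largest changes were KDM7A, a demethylase of H3K9 and H3K27, at 1.82 (SE 0.107, adjusted p = 8.61e-14 by edgeR), HR at 1.32, JMJD4 at -1.19 and RIOX2, a ribosomal oxygenase, at -1.16. In H196_Co, KDM7A was higher by 0.78 (adjusted p = 2.09e-05 by edgeR), the only DEG of the 15 genes tested there, and 2 genes were called as higher and 0 as lower by edgeR and by DESeq2, with 3 lower at an unadjusted p under 0.05. In MRC5_coH69 edgeR called 0 of the 16, as did DESeq2, and 2 had an unadjusted p under 0.05. Over all tested genes, 12.0% were called as higher and 7.78% as lower in H196_Co, and 6.70% were called with H69.

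The FAD-dependent demethylases KDM1A and KDM1B, which work without a JmjC domain, formed a list of 6 with their CoREST partners. Neither KDM1A (log2 fold change -0.062, adjusted p = 0.235 by edgeR) nor KDM1B (-0.15, adjusted p = 0.0627 by edgeR) was called in MRC5_coH196, and the genes called there were the partners RCOR1, RCOR3 and PHF21A. In MRC5_coH196 3 of the 6 were higher and 0 lower by edgeR and by DESeq2, with 1 lower at an unadjusted p under 0.05, where the log2(FPKM + 1) scale gave 2 higher and 2 lower (limma), with PHF21A, a reader of unmethylated H3K4, at 1.37 and the scaffold RCOR1 at 0.64 as DEGs. In H196_Co 2 were higher, with RCOR2 at 0.64 as the DEG. Of the 8 PRC1.1 partners of KDM2B, 5 were higher and 1 lower in MRC5_coH196, led by the corepressor BCOR at 1.44, RYBP at 1.19 and BCORL1 at 1.17, and on the log2(FPKM + 1) scale 3 were higher and 3 lower (limma). In H196_Co edgeR and DESeq2 called 0 of these 8, with 1 at an unadjusted p under 0.05. Over all tested genes, 37.2% were called as higher and 37.1% as lower in MRC5_coH196, and 12.0% and 7.78% in H196_Co. The share called therefore says little about either list.

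**Figure D5:**
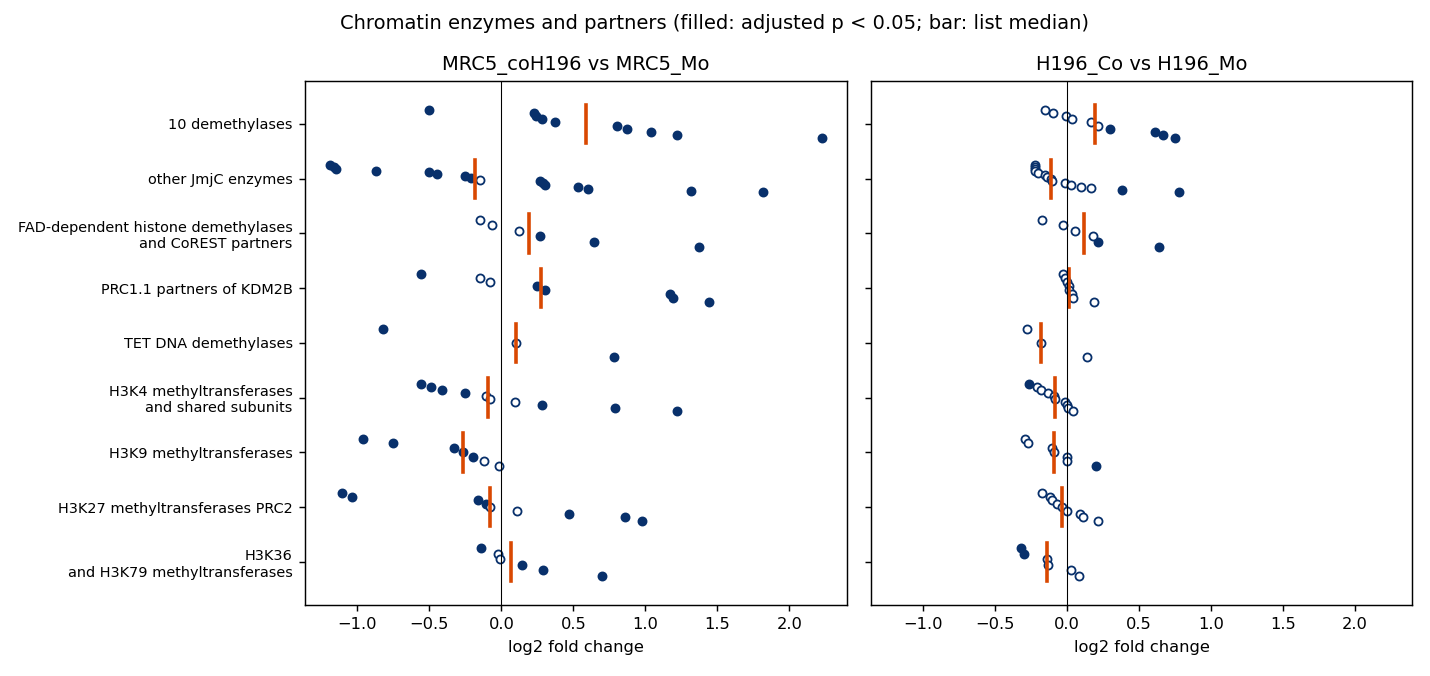
Log2 fold change (horizontal axis) of the 10 demethylases and of the genes in 8 lists of chromatin enzymes and partners in MRC5_coH196 (left) and H196_Co (right); filled points passed an adjusted p of 0.05 and the orange bar is the median of a list. In MRC5_coH196 the bar of the 10 demethylases is at 0.59 and that of the H3K9 methyltransferases at -0.27.

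KDM3A is the only member in the Hallmark hypoxia set of the tables, and 10 hypoxia reporters were read next to it. In MRC5_coH196 all 10 were higher and DEGs, with a median log2 fold change of 2.70, and in H196_Co all 9 tested were, with a median of 1.26. Of all tested genes, 17.2% and 3.26% were higher DEGs in these comparisons. The reporters were chosen with earlier results of these data known, so these counts only describe them and are not a test. CA9, the carbonic anhydrase that marks hypoxic tumour cells, had 3, 11 and 6 counts in MRC5_Mo and 816, 712 and 905 counts in MRC5_coH196. In H196 it had at most 1 count in a library and was not tested. ANKRD37 (5.02), NDRG1 (4.93) and VEGFA (3.84) had the next largest log2 fold changes in MRC5_coH196. With H69, 5 of the 10 reporters were higher by edgeR and 6 by DESeq2, none of the 5 beyond the DEG limit. There edgeR called 3.78% of all tested genes as higher.

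Of 7 oxygen-sensing genes, the hydroxylases EGLN1, EGLN2, EGLN3 and HIF1AN, the HIF subunits HIF1A and EPAS1, and VHL, which targets HIF for decay, 4 were higher and 2 lower in MRC5_coH196, and 3 and 3 on the log2(FPKM + 1) scale (limma). By edgeR, 37.2% of all tested genes were called as higher and 37.1% as lower, so the share called says little about this list. EGLN3, a prolyl hydroxylase that marks HIF for decay, had 0, 1 and 8 counts in MRC5_Mo and 211, 171 and 184 counts in MRC5_coH196, and EGLN1 was higher by 1.66 (SE 0.0525, adjusted p = 3.36e-19 by edgeR). In H196_Co, 2 of the 6 tested were higher and 1 lower, beside 12.0% and 7.78% of all tested genes. DESeq2 called 1 as higher and 1 as lower there. EGLN1 was higher by 0.60 and EPAS1, which had only 16 to 42 counts in an H196 library, by 0.97. HIF1A was the lower gene, at 38.7 ± 1.69 FPKM in H196_Mo and 28.3 ± 2.29 FPKM in H196_Co (log2 fold change -0.38, adjusted p = 0.000912 by edgeR). Its protein, HIF-1α, was measured by western blot in the paper, which reports it as unchanged when H196 or another SCLC line was grown with MRC5. The paper reports no HIF-1α level in MRC5. It also found hypoxia genes enriched among those raised in MRC5_coH196 and in H196_Co. RNA values do not measure HIF-1α, and whether HIF plays a part in the changes of the members was not tested.

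Over the 15 libraries, with values centred within each line, the genes most like KDM3A among 9792 genes of at least 10 CPM were MXI1 (Pearson's r 0.998), VEGFA (0.998), NDRG1 (0.997), ZNF395 (0.997) and YEATS2 (0.997). The first 3 are in the Hallmark hypoxia set. The points share libraries and fall into the study's groups, so these values only describe which profiles resemble that of KDM3A.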

How the data were processed

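RNA-seq of MRC5 and H196 libraries (15 libraries, 5 groups) was analysed from the deposited tables. Per the study's methods and processing notes, the authors cleaned reads with SOAPnuke, aligned them to GRCh38.p13 (HISAT, HISAT2 2.1.0, Bowtie2 2.3.4.3) and RSEM 1.3.1 is listed. The expected counts that the authors deposited are not normalized, and 92.1% to 93.7% of values are whole. The deposited FPKM values were normalized by the authors per gene length and mapped fragments, separately for each line. Deposited group means, 30 further columns of per-library values, the authors' own fold changes and p-values, and second copies of the tables were not used.

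The members and gene lists were chosen with earlier results of these data known. Rounded counts were fitted with edgeR 4.0.16 in R 4.3.3 (TMM, filterByExpr, glmQLFit, two-sided glmQLFTest), separately for the 9 MRC5 and the 6 H196 libraries, and over all 15 for tests across lines, with 12819, 12806 and 13585 genes tested. A count of 0 was read as a level of at most 3 counts, a bound that entered no fit, and replicates differed beyond sampling noise in every pair. A gene was called at an adjusted p under 0.05, and a DEG also had an absolute log2 fold change above 0.58. SE is the log2 fold change over the square root of F. CPM were scaled by TMM factors, and group values are mean ± SD.

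All 10 members are named. From each list, at most the 4 DEGs with the largest change per comparison are named, beside some further genes given for context. Alternatives were RLE size factors, DESeq2 1.42.0, other count filters, limma 3.58.1 on log2(FPKM + 1) or log2(FPKM + 0.1), a replicate block, fits of the compared groups alone, stricter thresholds, leaving out each library and, added after seeing the data, library totals. Promoter windows are from RefSeq. On simulated data with 100 genes changed 1.5-fold, edgeR recovered 97 in the MRC5_coH196 comparison, 93 in H196_Co and 69 in the difference of responses. The simulation changed a small set of well-counted genes, evenly up and down, and left all others unchanged. It therefore does not cover a comparison in which 74.3% of all tested genes were called, nor the shifts between scalings.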

Additional observations from a re-analysis of the deposited data

Results flagged for a closer look

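The fibroblast and H196 responses to their co-culture differed, by the test of the difference itself in the model over 15 libraries (edgeR, adjusted p in brackets), for 8 members. The difference, fibroblast minus H196 on the log2 scale, was 1.53 for KDM3A (2.32e-15), 0.85 for KDM5B (4.26e-09), 0.58 for KDM6B (0.000168), 0.48 for KDM4C (0.00102), 0.31 for KDM2A (0.00859), 0.30 for KDM3B (0.0018), 0.22 for KDM5A (0.0427) and -0.38 for KDM4A (0.00018). 51.2% of all genes tested also differed, so a difference between the lines was usual. The H196 cells started from 38.4 ± 2.19 FPKM of KDM3A and the fibroblasts from 5.65 ± 0.146 FPKM (SD, n = 3), and whether the starting level plays a part was not tested.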

How the results depend on the processing

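The calls of KDM3A, KDM4B, KDM5B, KDM6B, KDM4C and KDM4A in MRC5_coH196 and of KDM3A, KDM4B and KDM6B in H196_Co kept their direction and their side of the threshold in all alternatives and leave-one-out fits at an adjusted p under 0.05. The FPKM scale and library totals shifted all genes: the median log2 difference in MRC5_coH196 became -0.13 with log2(FPKM + 1) and -0.18 with log2(FPKM + 0.1) or library totals, and the share of calls that were higher went from 50% to 34.8%, 34.7% and 35.5%. In H196_Co that share went from 60.8% to 36.4%, 36.2% and 33.1%, against MRC5_coH69 from 49.3% to 33.3%, 33.1% and 34.4%, and with library totals from 56.3% to 45.6% for MRC5_coH69 against MRC5_Mo and from 50.8% to 66.6% for H196_Mo against MRC5_Mo. Members called in MRC5_coH196 became 6 with either pseudocount, since KDM2A, KDM2B, KDM3B and KDM5A were lost there, and KDM2B, KDM3B and KDM5A also with library totals. Genes called with H69 became 404 and 386.

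With the DEG limit, genes called became 4092 (MRC5_coH196), 71 (MRC5_coH69), 3618 (between them), 494 (H196_Co) and 3357 (difference of responses), and members became 5 (MRC5_coH196), 0 (MRC5_coH69), 5 (between them), 3 (H196_Co), 3 (difference of responses) and 3 (lines alone). With an adjusted p under 0.01, genes called became 386 with H69 and 1188 in H196_Co. Signs turned for small values: KDM3B between the fibroblast co-cultures (-0.009, -0.0096, and -0.01 with library totals), KDM2A in H196_Co (-0.064, -0.068 and -0.034), and with library totals KDM2B in the difference of responses (-0.037) and KDM4B (0.21) and KDM4C (0.38) between the lines alone. KDM5A between the lines alone was called with library totals (0.43), and KDM2A (-0.096) and KDM2B (-0.027) were not.

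Leaving out a library moved genes called with H69 from 859 to between 384 and 1015 (384 to 561 without MRC5_Mo replicate 2 or 3 or MRC5_coH69 replicate 1 or 2), and those in H196_Co from 2538 to between 1559 (without H196_Co replicate 3) and 2723, with 1656 without H196_Mo replicate 3. It turned the sign of uncalled values: with H69, KDM4C ranged from -0.083 to 0.096 (also 0.012) and KDM5A from -0.0066 to 0.043. In H196_Co, KDM5A ranged from -0.064 to 0.068 and KDM2A from -0.057 to 0.13. Between the lines alone, KDM4C ranged from -0.11 to 0.068 (also 0.00089) and KDM5A from -0.0016 to 0.024, and KDM2B ranged from -0.0035 to 0.11 in the difference of responses. KDM3B between the fibroblast co-cultures was lost without MRC5_coH69 replicate 2 (0.12), and KDM4A between the lines alone without H196_Mo replicate 3 (0.12). The cause of these changes was not tested. Replicate numbers did not pair the libraries (correlation of same-numbered deviations from -0.151 to 0.081), and with the replicate block 10, 1, 10, 4, 8 and 8 members were called, as without it, while genes called in H196_Co went from 1542 higher and 996 lower to 1310 and 766. Each group has 3 libraries, and intervals cover only their spread.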

Other observations

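Enzymes that write the marks the members remove were read from lists. Of 7 H3K9 methyltransferases, 5 were called as lower and 0 as higher in MRC5_coH196 (edgeR, with the same counts at an unadjusted p under 0.05), where 37.1% of all tested genes were called as lower and 37.2% as higher. The DEGs were SUV39H1 at -0.96 (SE 0.0993, adjusted p = 3.87e-09 by edgeR) and SUV39H2 at -0.75, both writers of the trimethyl mark, beside 14.7% of all tested genes that were lower DEGs. DESeq2 called 4 of the 7 as lower and 0 as higher. Of 10 H3K4 methyltransferases and shared subunits, 3 were higher and 4 lower, with KMT2A at 1.22 and KMT2C at 0.79 as DEGs. Of 9 PRC2 genes, 3 were higher and 4 lower: the catalytic subunit EZH2 was at -1.11 and its alternative EZH1 at 0.86, and the accessory subunits PHF19 and JARID2 at -1.04 and 0.98. Of 6 H3K36 and H3K79 methyltransferases 3 were higher and 1 lower, with NSD3 at 0.70 as the DEG. On the log2(FPKM + 1) scale the H3K4 list had 2 higher and 6 lower, the PRC2 list 3 and 5, and the H3K36 and H3K79 list 1 and 3 (limma).

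Of the 3 TET enzymes, which oxidise methylated DNA with the same co-substrates as the JmjC enzymes, TET1 was at 0.78 and TET3 at -0.82 in MRC5_coH196, both DEGs. In H196_Co no gene of these lists was a DEG, with 1 of 7 H3K9 methyltransferases called as higher and 1 of 10 H3K4 and 2 of 6 H3K36 and H3K79 methyltransferases called as lower. There 12.0% of all tested genes were called as higher and 7.78% as lower, so these few calls say little about the lists. In MRC5_coH69 edgeR called 0 genes of each of these lists, as did DESeq2, where edgeR called 6.70% of all tested genes. At an unadjusted p under 0.05 there were 3 PRC2 genes, 1 gene of each of the other methyltransferase lists and 0 TET genes.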
